A study of Homo sapiens with 6 samples.

Results

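The loci examined are those of 10 genes of the granulocyte and monocyte lineage, SPI1, CEBPA, CEBPB, IRF8, MPO, AZU1, PRTN3, ELANE, LYZ and CD33. Their accessible chromatin was taken as every ATAC-seq peak that overlapped 1 of 8 hg19 windows drawn around the genes (AZU1, PRTN3 and ELANE lie side by side and share a window). Only the SPI1 and CEBPA windows were drawn to take in named enhancers, so distal enhancers of the other genes may lie outside. The windows add up to 590 kb and held 26 of 112610 shHMGA1 peaks and 31 of 127153 control peaks. In ATAC-seq the transposase Tn5 inserts adapters into open DNA, so a peak marks a stretch that was open in many cells. A larger share of cells with an open site and a more open site in each cell cannot be told apart. The cells were DAMI, a human leukaemia line labelled MPN/AML, of which 3 samples were infected with a lentivirus carrying a short hairpin against HMGA1 (shHMGA1) and 3 with a control lentivirus. HMGA1 is a chromatin protein with AT-hooks that bind AT-rich DNA. Each group is represented by 1 peak list with no values per sample, so no difference below has a replicate check, none has a p-value, and read depth is unknown. The design text also mentions the SET-2 line. All samples are labelled DAMI, but how samples were combined into a list is not given, so whether SET-2 reads entered the lists is unknown.

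Granulocytes and monocytes arise from a shared progenitor under a small set of transcription factors. SPI1 encodes PU.1, an ETS factor needed for both lineages; CEBPA starts the granulocyte programme; CEBPB acts in emergency granulopoiesis and in macrophages; IRF8 favours monocytes and dendritic cells. MPO, AZU1, PRTN3 and ELANE encode proteins that neutrophil precursors pack into primary granules, LYZ encodes lysozyme, and CD33 is a sialic acid binding receptor on the surface of myeloid cells.

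Of the 10 gene starts, 5 lay under a peak in both lists and 5 had no peak within 1 kb in either list. The starts with a peak were those of SPI1, CEBPA, CEBPB, LYZ and CD33. The starts without a peak were those of IRF8, MPO, AZU1, PRTN3 and ELANE, so MPO and the serine protease family genes AZU1, PRTN3 and ELANE were all without a peak at the start in shHMGA1 and in control cells. LYZ, whose product is also found in primary granules, had one. Among the starts set for the 10 genes, those with a peak were therefore the same under both conditions. A further CD33 start in RefSeq lies upstream of the one used and is not counted here. By its RefSeq spacing it had a control peak within 1 kb and no shHMGA1 peak. RefSeq promoter sequences (GRCh38.p14, 250 bases before the start to 50 after it) were at hand for 6 of the 10 genes. The first 3 below belong to starts with a peak and the last 2 to starts without one. Capitals mark the letters GAGGAA (the core bound by PU.1 and other ETS factors) and CCAAT, on either strand.
CEBPA: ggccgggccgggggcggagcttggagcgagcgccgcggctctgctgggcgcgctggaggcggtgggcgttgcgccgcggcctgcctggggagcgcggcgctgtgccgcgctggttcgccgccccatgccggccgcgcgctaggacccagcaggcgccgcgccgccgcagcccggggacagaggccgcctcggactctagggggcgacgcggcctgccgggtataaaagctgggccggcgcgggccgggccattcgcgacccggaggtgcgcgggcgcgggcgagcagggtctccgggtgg
CEBPB: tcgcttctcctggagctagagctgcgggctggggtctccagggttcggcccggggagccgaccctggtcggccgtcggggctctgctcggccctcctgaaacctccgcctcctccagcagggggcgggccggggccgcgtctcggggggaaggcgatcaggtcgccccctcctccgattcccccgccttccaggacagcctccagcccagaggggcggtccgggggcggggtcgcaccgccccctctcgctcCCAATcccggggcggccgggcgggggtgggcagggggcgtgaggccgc
CD33: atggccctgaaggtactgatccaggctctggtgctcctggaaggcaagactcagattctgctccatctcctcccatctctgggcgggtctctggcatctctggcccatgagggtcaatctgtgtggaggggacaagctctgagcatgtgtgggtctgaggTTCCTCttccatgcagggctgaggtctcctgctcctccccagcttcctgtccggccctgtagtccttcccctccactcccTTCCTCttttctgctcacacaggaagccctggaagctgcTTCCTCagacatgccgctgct
PRTN3: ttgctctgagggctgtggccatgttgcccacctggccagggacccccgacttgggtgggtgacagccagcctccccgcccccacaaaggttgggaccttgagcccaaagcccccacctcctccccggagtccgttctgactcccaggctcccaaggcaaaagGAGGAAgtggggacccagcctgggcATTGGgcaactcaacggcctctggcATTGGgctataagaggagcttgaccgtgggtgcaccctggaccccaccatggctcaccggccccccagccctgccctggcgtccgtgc
AZU1: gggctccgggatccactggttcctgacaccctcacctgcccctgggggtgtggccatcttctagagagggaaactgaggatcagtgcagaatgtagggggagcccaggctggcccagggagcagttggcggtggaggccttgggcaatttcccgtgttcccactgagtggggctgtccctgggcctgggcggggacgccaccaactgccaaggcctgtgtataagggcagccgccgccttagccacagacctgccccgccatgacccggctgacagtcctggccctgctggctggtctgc

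These stretches are chr19:33302485-33302784 on the minus strand for CEBPA and, on the plus strand, chr20:50190333-50190632 for CEBPB, chr19:51224830-51225129 for CD33, chr19:840749-841048 for PRTN3 and chr19:827587-827886 for AZU1. CEBPB has a second listed start 247 bases from the one shown, and the starts listed for IRF8 lie inside the gene, so their sequences are not shown. The CD33 start shown is the one under the peak, 14004 bases inside the longest RefSeq span of the gene. GAGGAA was found in the promoters of CD33 and PRTN3 and is present in 27.9% of all 35116 RefSeq promoters. CCAAT was found in those of CEBPB and PRTN3, against 34.6% of all promoters. None of the 5 sequences shown held the letters AGATAA, read by erythroid zinc-finger factors of the GATA1 family and present in 10.3% of all promoters. The RUNX letters AACCGC, present in 8.09%, were found among the listed starts only in the second CEBPB promoter. The C/EBP palindrome TTGCGCAA, present in 0.151%, was in none. A and T made up 19.3% of the CEBPA promoter and 23.0% of the CEBPB promoter, against a median of 41.3% over all promoters, and only 1.81% and 5.86% of promoters held less. The values were 41.0% for CD33, 33.3% for PRTN3 and 34.0% for AZU1. The longest run of A and T letters was 7 bases in CEBPA, 3 in CEBPB, 4 in CD33 and 5 each in PRTN3 and AZU1, with a median of 6. The letters thus do not separate the promoters with a peak from those without one in this small set.

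**Figure D1:**
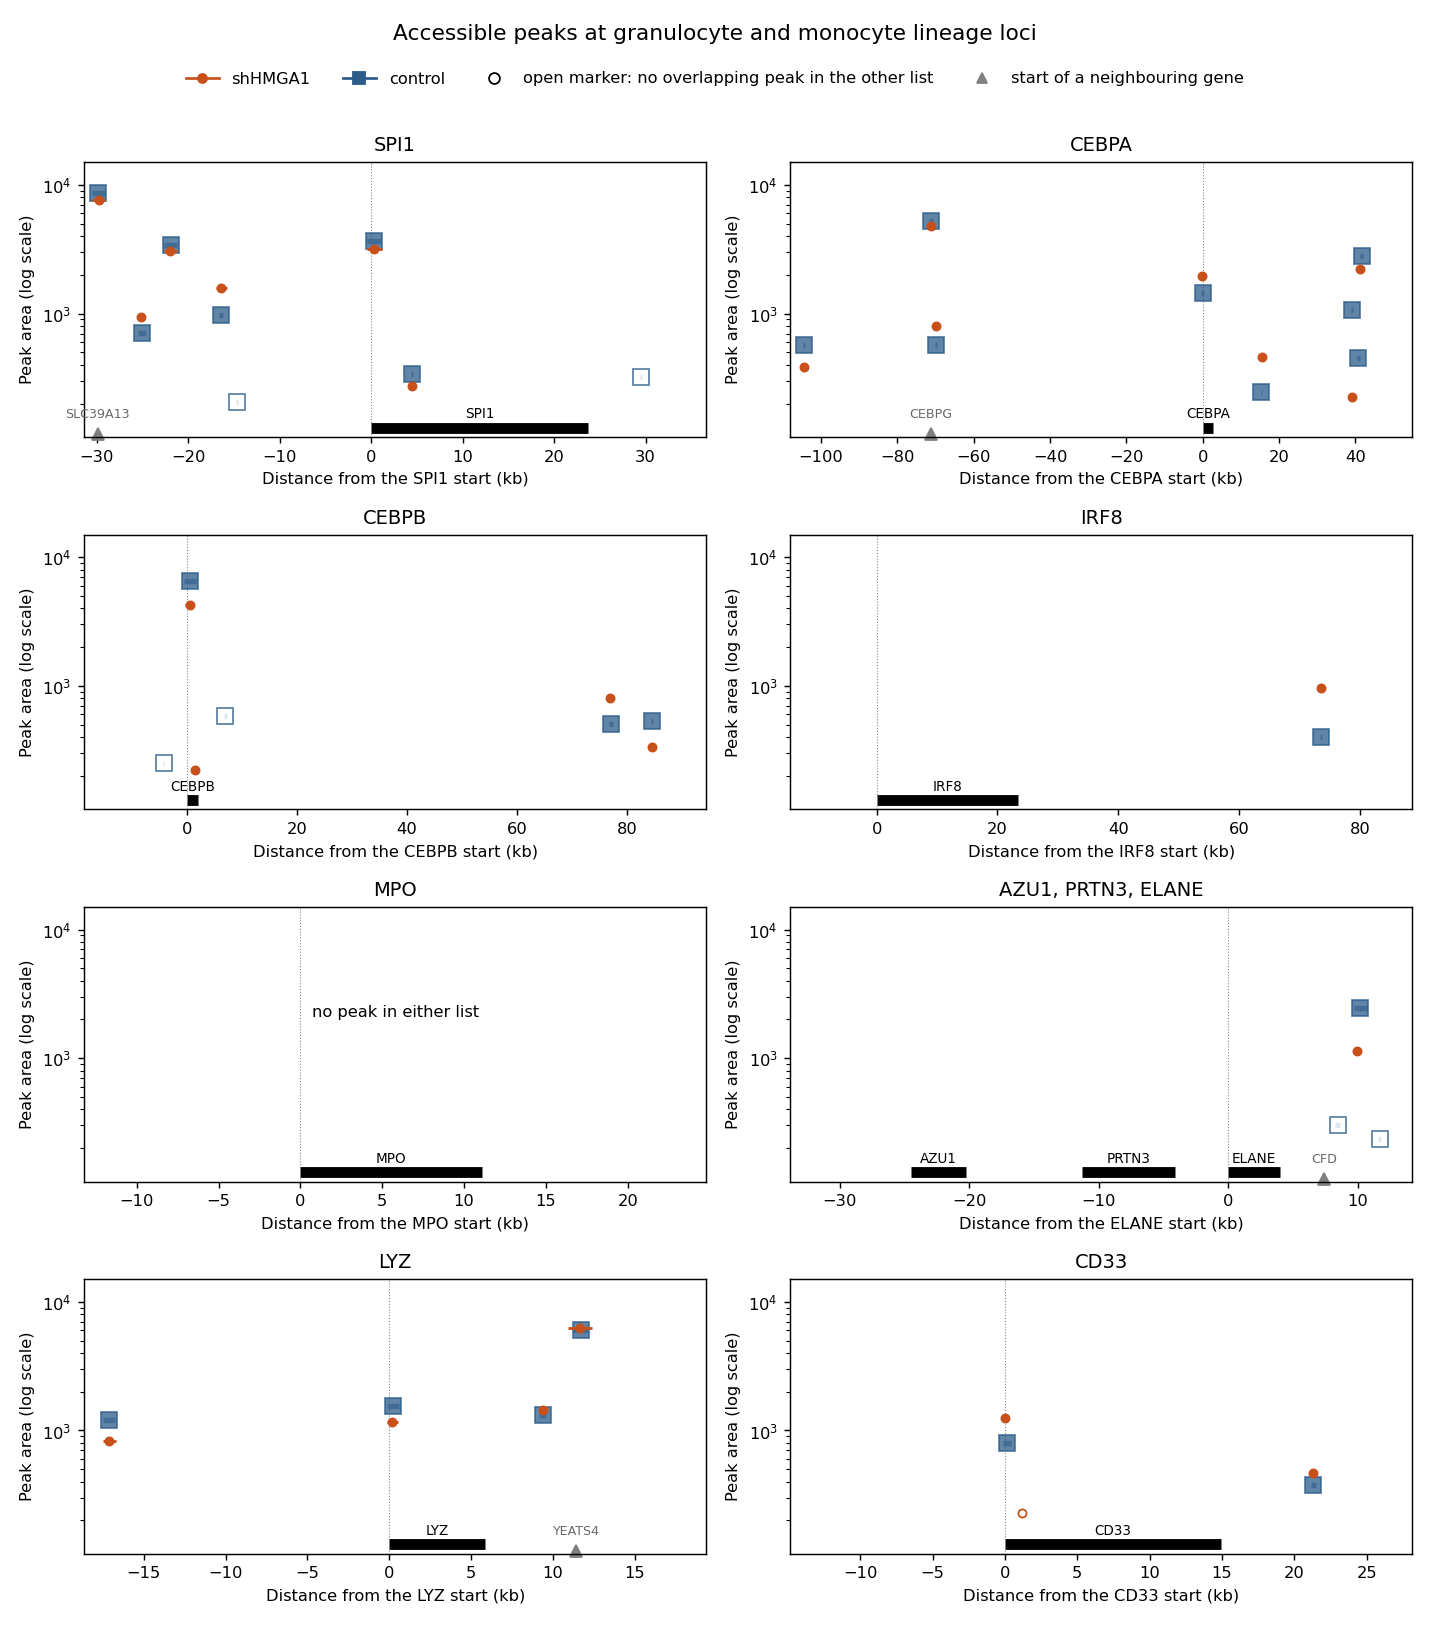
Each panel plots the window peaks of 1 locus by distance from the gene start (kb, downstream to the right) and by the area that the peak caller gave (log scale); circles are shHMGA1 peaks, squares control peaks, horizontal bars the peak widths (hidden behind most markers), black bars the genes and triangles the starts set for neighbouring genes. SPI1, CEBPA, CEBPB, LYZ and CD33 carry a peak at distance 0 in both lists, the MPO window is empty, and every open marker (1 shHMGA1 and 6 control peaks) has an area of at most 586.

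The SPI1 locus had a peak at the start and several upstream. Its window (chromosome 11, 47365000 to 47430000) held 6 shHMGA1 and 8 control peaks. The peak over the start ran from 47398984 to 47400602 in shHMGA1 cells and from 47399048 to 47400608 in control cells, widths of 1619 and 1561 bp. The caller's area under the significance curve, which grows with width and was at least 200 for every listed peak, was 3154 and 3692. Those areas stood at the 87.5th percentile of the shHMGA1 list and the 89.8th of the control list. Areas depend on depth, so the values of the lists are set side by side here and no change is read from them.

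Upstream of SPI1, where its upstream regulatory element is known, sites were open in both lists. At 16.2 kb upstream in shHMGA1 cells and 16.3 kb in control cells, the shHMGA1 peak was 1193 bp wide (47415945 to 47417137) and the control peak 442 bp wide (47416314 to 47416755), a log2 width ratio of 1.43. Their areas were 1588 and 979. This was the largest log2 width difference among the window sites with exactly 1 peak in each list. The control list also held a small separate peak of 264 bp at 47414692 to 47414955, 14.7 kb upstream, with an area of 207 and no shHMGA1 counterpart. The element 21.7 kb upstream was alike in width, 1399 bp in shHMGA1 cells and 1454 bp in control cells (log2 ratio -0.06), and so was a weaker one near 25.3 kb, at 907 and 879 bp (0.05). Within the gene, 4.47 kb from the start by the shHMGA1 summit, a peak of 167 bp in shHMGA1 cells and 166 bp in control cells had areas of 273 and 337.

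The largest SPI1 window peak by area was not at SPI1. It lay on the window edge 30.0 kb upstream, from 47429213 to 47430602 in shHMGA1 cells and from 47429212 to 47430680 in control cells, over the start set for the zinc transporter gene SLC39A13. By the spacing in RefSeq, which differs by 1190 bp, that start would lie just outside the peak. Its areas were 7682 and 8617, the 96.5th and 97.2nd percentiles. Of the 2 control peaks without a counterpart, the larger was at 47370517 to 47370705, 29.5 kb downstream of the start and beyond the end of the gene, with an area of 322 (24.5th percentile).

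CEBPA had a peak at its start and at a distal site downstream under both conditions. Its window (chromosome 19, 33740000 to 33900000) held 7 shHMGA1 and 8 control peaks, and none was without a counterpart in the other list. The start peak was 836 bp wide in shHMGA1 cells (33793270 to 33794105) and 686 bp in control cells (33793169 to 33793854), with areas of 1950 and 1455 and a log2 width ratio of 0.29. A site 41.5 kb downstream, where a myeloid enhancer of CEBPA is known in human cells, was 1 peak of 1736 bp in shHMGA1 cells (33751334 to 33753069) and 2 peaks of 781 and 760 bp in control cells. The area was 2205 in shHMGA1 cells, against 2796 and 451 in control cells. These 2 control peaks became 1 when peaks within 150 bp were merged, so the split is not read as a difference in width. The neighbouring site, 39.0 kb downstream, was narrower in shHMGA1 cells. It measured 258 bp in shHMGA1 cells and 492 bp in control cells, a log2 ratio of -0.93, with areas of 223 (5.79th percentile) and 1061 (67.6th percentile).

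Between the start and that site, 15.4 kb downstream, the shHMGA1 peak had 280 bp and the control peak 276 bp. The largest peak of the window, 71.1 kb upstream at 33864286 to 33865259 in shHMGA1 cells and 33864192 to 33865272 in control cells, covered the start of CEBPG, a C/EBP family member expressed in many tissues. Its areas were 4809 and 5267. A peak of 553 bp in shHMGA1 cells and 528 bp in control cells lay next to it, 70.0 kb upstream. The site farthest upstream, at 104 kb, was 355 bp wide in shHMGA1 cells and 535 bp in control cells (-0.59).

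At CEBPB (chromosome 20, 48790000 to 48900000) the start lay under some of the widest peaks of the set. The control peak over it spanned 2173 bp (48806555 to 48808727), whereas the shHMGA1 list held 2 peaks overlapping that span, of 1551 bp (48806875 to 48808425) and 188 bp (48808552 to 48808739). Areas were 4284 and 222 in shHMGA1 cells, against 6565 in control cells. The bases covered over the start were therefore fewer in the shHMGA1 list. Both other control peaks near the gene were without a counterpart, 1 of 463 bp at 48813897 to 48814359 (area 586, 49.1st percentile) and a weaker one 4.16 kb upstream (area 252). The first of these had the largest area of all unshared peaks in the windows, and it was still below the median of its list. The distal sites 76.9 and 84.6 kb downstream were shared, at 734 and 376 bp in shHMGA1 cells and 738 and 435 bp in control cells (log2 ratios -0.01 and -0.21).

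IRF8 had no listed peak at its start or along its whole length. A site without a peak is one that did not pass the caller's threshold, at a depth that is unknown. In its window (chromosome 16, 85920000 to 86020000) the only peak in each list lay 73.7 kb downstream in shHMGA1 cells (86006195 to 86006537, 343 bp, area 966) and 73.5 kb downstream in control cells (86006232 to 86006529, 298 bp, area 403). The log2 width ratio was 0.20. The start of IRF8 sat in a stretch without any peak of 172 kb in the shHMGA1 list and 127 kb in the control list. The shorter control stretch was set by a weak peak of 255 bp, 54.0 kb upstream (85878518 to 85878772, area 218, 4.87th percentile of the list).

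MPO, AZU1, PRTN3 and ELANE had no peak at their starts or within their bodies. The MPO window (chromosome 17, 56335000 to 56370000) was empty in both lists; myeloperoxidase is the enzyme that gives neutrophil granules their peroxidase activity. The nearest peak to the MPO start was 23.5 kb away in shHMGA1 cells (56381749 to 56382088, area 399) and 23.4 kb away in control cells (56381708 to 56381911, area 406). AZU1 (azurocidin), PRTN3 (proteinase 3) and ELANE (neutrophil elastase) lay together in a stretch without a peak of 63.6 kb in shHMGA1 cells and 62.3 kb in control cells. From the AZU1 start the nearest peak was 29.5 kb away in shHMGA1 cells and 29.6 kb in control cells, from the PRTN3 start 21.0 and 19.6 kb, and from the ELANE start 9.67 and 8.26 kb.

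The peaks of the AZU1, PRTN3 and ELANE window (chromosome 19, 820000 to 865000) were all beyond ELANE, at CFD, the complement factor D gene, or just past its end. The shared site was narrower in shHMGA1 cells, with 588 bp (861962 to 862549) against 977 bp in control cells (861978 to 862954), a log2 ratio of -0.73. Its areas were 1146 and 2444. The remaining peaks were control-only, 1 of 398 bp at 860548 to 860945 (area 301) and 1 of 264 bp at 863847 to 864110 (area 234). This window had the lowest ratio of peak numbers, 1 in shHMGA1 cells to 3 in control cells, yet none of these peaks lay in AZU1, PRTN3 or ELANE.

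LYZ kept the same 4 sites in both lists (chromosome 12, 69725000 to 69760000). The peak over its start measured 724 bp in shHMGA1 cells (69741969 to 69742692) and 722 bp in control cells (69741989 to 69742710), with summits 6 and 8 bp upstream of the start and areas of 1172 and 1559. A site 9.29 kb downstream, past the end of the gene, was 423 bp wide in shHMGA1 cells and 427 bp in control cells, with areas of 1434 and 1312. The peak with the largest area, 11.8 kb downstream, covered the start of YEATS4, a gene for a chromatin reader. It measured 1498 bp in shHMGA1 cells (69753048 to 69754545) and 933 bp in control cells (69753369 to 69754301), a log2 ratio of 0.68, with areas of 6298 and 5994. The site on the window's upstream edge, 17.0 kb from the start in shHMGA1 cells and 17.2 kb in control cells, measured 743 and 702 bp.

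CD33 held the only peak of the windows that was found in shHMGA1 cells alone. Its window (chromosome 19, 51715000 to 51755000) had 3 shHMGA1 and 2 control peaks. The start peak was 580 bp wide in shHMGA1 cells (51728058 to 51728637) and 529 bp in control cells (51728206 to 51728734), a log2 ratio of 0.13, with areas of 1251 and 796. The shHMGA1-only peak lay inside the gene, 1.23 kb from the start, at 51729406 to 51729653, 248 bp wide with an area of 228 (7.05th percentile of its list). The site 21.2 kb downstream, past the end of the gene, measured 397 bp in shHMGA1 cells and 374 bp in control cells.

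**Figure D2:**
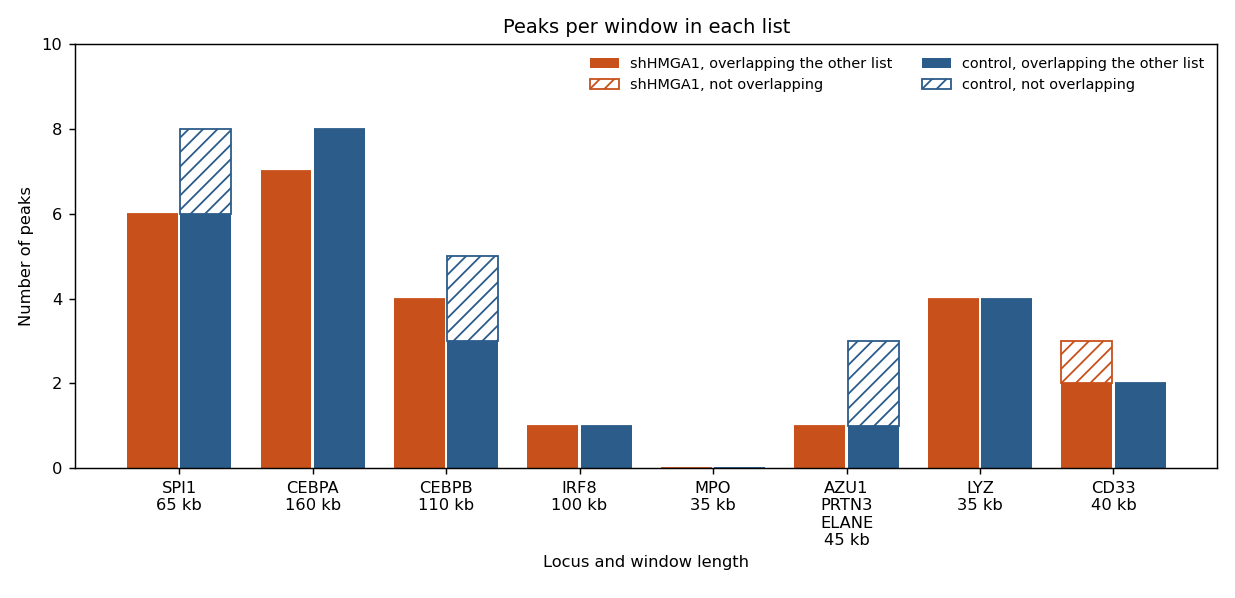
Bars give the number of peaks in each window (window lengths in kb below the names), for shHMGA1 on the left and control on the right; filled parts overlap a peak of the other list by at least 1 bp and hatched parts do not. SPI1 and CEBPA hold the most peaks, MPO holds none, and the hatched parts are 6 control peaks in 3 windows and 1 shHMGA1 peak at CD33.

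Over all windows there were 26 shHMGA1 and 31 control peaks, a ratio of 0.839 with an exact binomial 95% interval of 0.478 to 1.46. The ratio of the whole lists was 0.886, within that interval. The direction did not hold when only the peaks with the most significant summits were kept. With summits at or above the joined median the windows held 17 peaks in each list, and with the lists cut to an equal length by summit significance 18 shHMGA1 and 15 control peaks, ratios of 1.00 and 1.20. The whole lists then had ratios of 0.873 and, by construction, 1.00. Peaks numbered 44.1 per Mb in shHMGA1 cells and 52.5 per Mb in control cells, against 36.4 and 41.1 per Mb over the 24 chromosomes of the lists. In shHMGA1 cells the density was 114 per Mb at LYZ, 92.3 at SPI1, 36.4 at CEBPB and 22.2 at AZU1, PRTN3 and ELANE, and in control cells it was 114, 123, 45.5 and 66.7 per Mb at the same loci. It was lowest at IRF8, with 1 peak in 100 kb in each list, and at MPO, with 0.

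Of the shHMGA1 window peaks, 1 of 26 had no control counterpart, against 14.8% of all shHMGA1 peaks. Of the control window peaks, 6 of 31 had no shHMGA1 counterpart, against 24.9% of all control peaks. The shared shares were 96.2% (exact interval 80.4 to 99.9) in shHMGA1 cells and 80.6% (62.5 to 92.5) in control cells, and the intervals include the whole-list shares of 85.2% and 75.1%. Without the CD33 window the shHMGA1 share was 100%, and with lists of equal length it was 72.2%, against 85.1% of all shHMGA1 peaks kept in that setting. The unshared peaks had areas of 228 in shHMGA1 cells and 207 to 586 in control cells, all below the medians of their lists (616 and 602). No peak over a start set for a member was unshared. By RefSeq spacing, however, a control-only peak outside the window lay within 1 kb of the upstream start of CD33. Window peaks had a median area of 1056 in shHMGA1 cells and 707 in control cells, and 18 of 26 and 16 of 31 stood above their list's median.

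**Figure D3:**
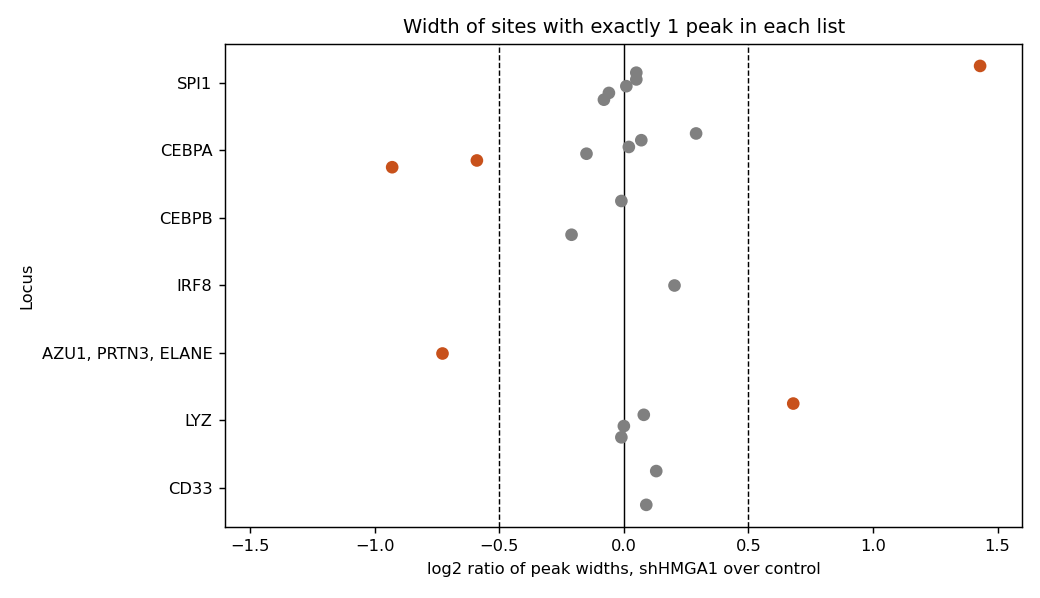
Points give the log2 ratio of peak width, shHMGA1 over control, for the 22 sites with exactly 1 peak in each list, by locus; dashed lines mark 0.5 in either direction and orange points lie beyond them. The 5 orange points are 1 at SPI1, 2 at CEBPA, 1 beyond ELANE and 1 at LYZ, and none of these sites covers the start of a member.

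The 22 window sites with exactly 1 peak in each list had a median log2 width ratio of 0.01, against -0.03 over all 83581 such sites. Beyond 0.5 on the log2 scale, 2 of the 22 were wider in shHMGA1 cells, against 11.8% of all sites, and 3 were narrower, against 16.3%. The wider sites were the SPI1 site 16.2 kb upstream and the YEATS4 start. The narrower ones were the CEBPA sites 39.0 kb downstream and 104 kb upstream and the site at CFD. The start peaks of SPI1, CEBPA, LYZ and CD33 had ratios of 0.05, 0.29, 0.00 and 0.13. The CEBPB start is not among these sites, since it had 2 shHMGA1 peaks against 1 control peak.

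The same look was taken at other genes, as a description of the line. Among 10 further granulocyte and monocyte genes, 4 had a peak within 1 kb of the start in both lists: CSF3R (the granulocyte colony-stimulating factor receptor), ITGAM (CD11b), CTSG (cathepsin G) and GFI1 (a repressor needed for neutrophils). CTSG, also a primary granule protease gene, thus had a peak at its start where AZU1, PRTN3 and ELANE had none; its areas were 608 in shHMGA1 cells and 696 in control cells. No peak lay within 10 kb of the spans set for S100A8 or MNDA in either list. Including 10 kb on each side, these 10 genes held 35 shHMGA1 and 33 control peaks, of which 5 and 3 were unshared, against 14.8% and 24.9% of all peaks. Counted over the same flanks, 1 of 12 shHMGA1 peaks and 5 of 15 control peaks of the 10 lineage genes were unshared.

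Of 8 erythroid and megakaryocytic genes, 6 had a peak within 1 kb of the start in both lists. These were the transcription factor genes GATA1, TAL1, GFI1B and NFE2 and the platelet glycoprotein genes ITGA2B and GP9. KLF1, the erythroid factor, lay just outside the limit at 1.02 kb in shHMGA1 cells and 1.11 kb in control cells, and PF4, the platelet chemokine, was 56.0 kb from a peak in both. The largest area within 10 kb of TAL1 was 22816 in shHMGA1 cells and 25086 in control cells, and at GATA1 11127 and 12563. Within 10 kb of the 8 genes there were 45 peaks in each list. Of these, 3 shHMGA1 and 5 control peaks were unshared, against 14.8% of all shHMGA1 and 24.9% of all control peaks. The peak over the GATA1 start itself had areas of 895 and 1495, and the one over the TAL1 start was the largest peak of that gene. Of the 3 lymphoid genes CD3E, PAX5 and CD79A, 1 had a peak within 1 kb of the start in shHMGA1 cells (CD79A, 0.431 kb away, area 249) and 0 in control cells. With their flanks they held 11 shHMGA1 and 9 control peaks, of which 3 and 1 were unshared, against the same 14.8% and 24.9%. Peaks are not expression, so these counts do not say which genes were transcribed.

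**Figure D4:**
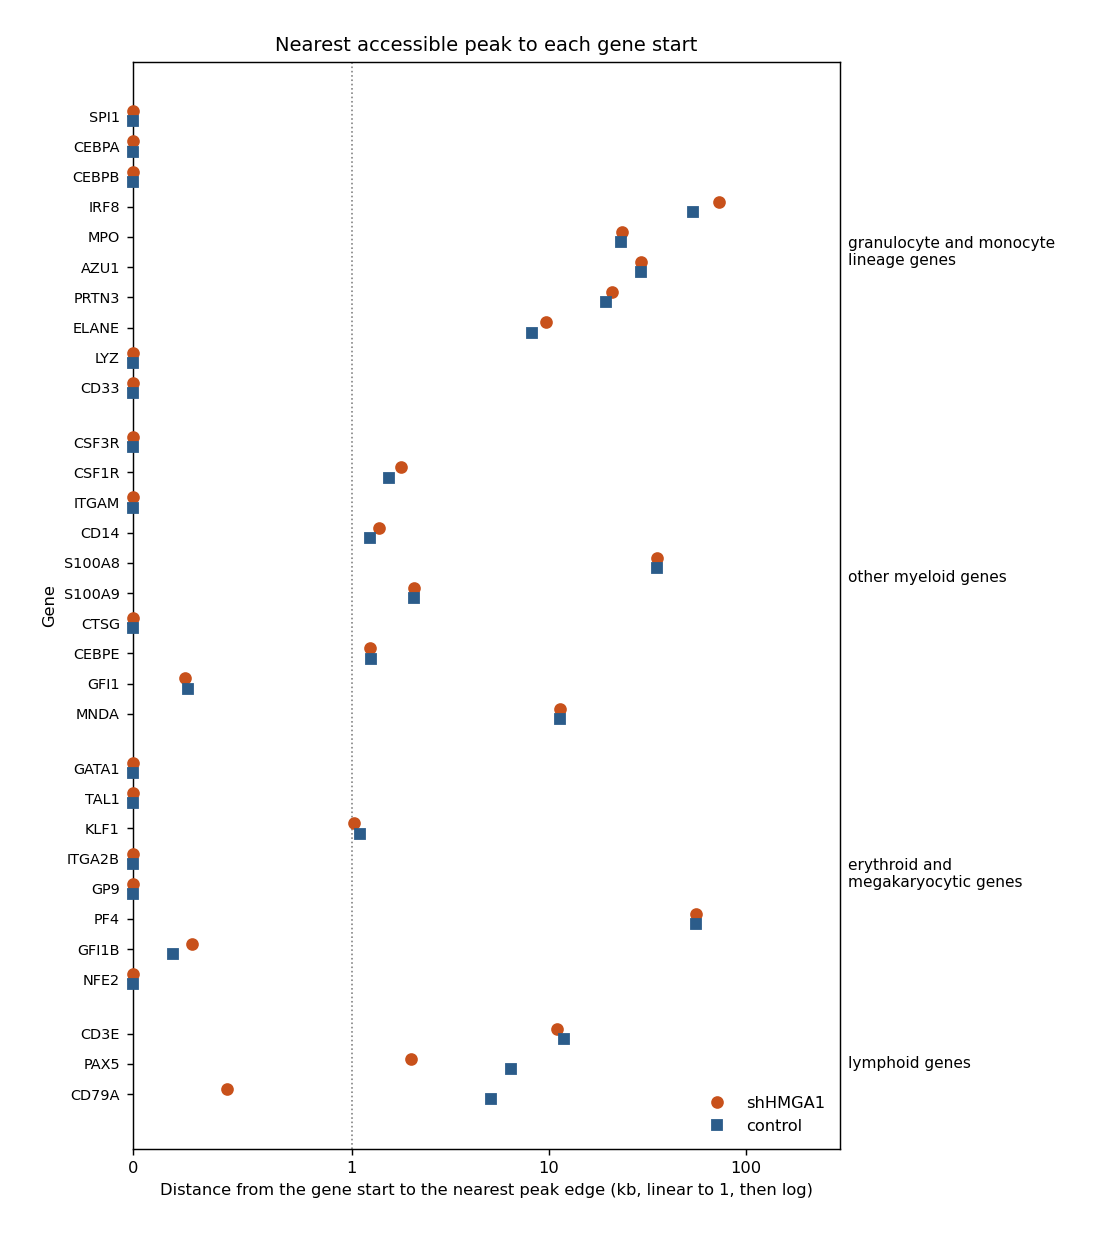
Points give the distance in kb from each gene start to the edge of the nearest peak (linear to 1 kb, then log scale; 0 means that a peak covers the start), for shHMGA1 as circles above control as squares; the dotted line marks 1 kb. Of the 10 lineage genes, SPI1, CEBPA, CEBPB, LYZ and CD33 sit at 0 in both lists, while IRF8, MPO, AZU1, PRTN3 and ELANE lie 8.26 to 73.4 kb from a peak.

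The window limits decided some members. A peak straddled the edge of the SPI1 window and of the LYZ window in each list. The nearest peaks outside were 3.79 kb above the SPI1 window in shHMGA1 cells and 3.78 kb in control cells, and 7.59 and 7.72 kb below the MPO window. At CD33 the nearest control peak outside lay 0.424 kb below the window, where the nearest shHMGA1 peak on that side was 28.5 kb away. The longest RefSeq span of CD33 begins on that side, 14004 bases upstream of the start used and outside the window. If that RefSeq spacing also holds in hg19, this control-only peak lay within 1 kb of the upstream start, and no shHMGA1 peak did. Whether the peak covers that start was not examined. With each window widened by 20 kb there were 38 shHMGA1 and 42 control peaks, with 3 of each at MPO and none added at IRF8, CEBPA or ELANE.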

How the data were processed

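Per the labels, 50000 DAMI cells per reaction were treated for 45 min at 37 °C with Tn5 (2 µl), in 3 samples per group. Peaks were called with Genrich on hg19, per the submitters' processing notes; the aligner, Genrich's settings and the pooling of samples are not stated there. The authors' lists were matched to groups by their names (Con, shHMGA1). The deposited signal value is a peak's area (significance summed over its bases), the deposited summit value is an unadjusted −log10 p, and the deposited score (area per base, capped) was not used. Depth is unknown.

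Windows were those of the rule that defines the loci. The members, windows and lists were chosen with earlier results of these data known. Peaks were shared where at least 1 bp overlapped. Intervals of shares and of the ratio of peak numbers are exact Clopper-Pearson 95% intervals. That of the median log2 width ratio, -0.08 to 0.09, was read from the ranked ratios with binomial limits. All cover counting error only and treat peaks as independent. Percentiles are ranks by area within a list.

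No hg19 annotation was used. Gene starts were set by hand from general knowledge of hg19 and held against GRCh38.p14 RefSeq. Lengths matched within 31 bp for 9 of 10 members, and CD33 from its listed start to its end within 3 bp. A matching length does not test position, and CEBPB, IRF8, MPO and CD33 had no check of spacing to a neighbour. Some comparison genes matched less well. Set lengths differed from RefSeq by -31395 bp at S100A8, -5918 at GP9, -1767 at GFI1 and -1752 at GFI1B. At CEBPE, PF4, PAX5, CD79A, CD3E and ITGA2B they differed by -266 to 369 bp. The starts of these genes were not checked further, so their distances to peaks are less certain. The starts of CEBPG, YEATS4 and CFD matched in spacing to the member within 36 bp; SLC39A13 differed by 1190 bp.

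The sites to name were the peaks largest in area, nearest the start, unshared with the largest area and most changed in width, per window; other sites were named after their values were seen. The overlap and width counts were tested on simulated lists. Some genes of the comparison lists are not reported here. Alternatives are given in the closing section. Intervals came from scipy 1.17.1, tables from pandas 2.3.3 and numpy 2.4.6, and figures from matplotlib 3.10.9, under Python 3.11.15.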

Additional observations from a re-analysis of the deposited data

How the results depend on the processing

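Sharing was recomputed with 50% reciprocal overlap and within 500 bp. Peaks were recounted with summits at or above the joined median −log10 p of 5.24, the 56305 most significant peaks of each list, merging within 150 bp, assignment by summit, windows widened by 20 kb, leaving out each window in turn and, added after seeing the data, leaving out peaks at the 4 neighbouring genes. The shared share of shHMGA1 window peaks left its main interval with lists of equal length, at 72.2% (whole lists 85.1%), and without the CD33 window, at 100%. The latter was bound to happen, as that window held the only unshared shHMGA1 peak. The other 59 comparisons stayed inside the main intervals, which says little. Leaving out the empty MPO window could change nothing, and the ratio's interval of 0.478 to 1.46 takes in both directions. The ratio of peak numbers was 1.00 at the joined median (whole lists 0.873) and 1.20 with equal numbers (whole lists 1.00 by construction), against 0.793 to 0.893 when a window was left out, 0.833 merged, 0.862 by summit, 0.905 widened and 0.846 without the neighbours. The cause was not tested. The unshared numbers moved most. They were 4 in shHMGA1 cells and 9 in control cells with reciprocal overlap, 3 and 3 at the joined median, and 5 and 2 with equal numbers, against 1 and 6. The median log2 width ratio stayed between 0.00 and 0.03. Peak numbers of single windows moved by over 1.5 times, or to or from 0, in 20 comparisons. In 76 they were unchanged or moved by at most 1.5 times. No paired analysis was possible because the samples of a group share a single list, and no replicate could be left out for the same reason.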
